A study of Mus musculus with 2 samples.

Results

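The Tcl1 family of the mouse comprises Tcl1 and the Tcl1b genes Tcl1b1, Tcl1b2, Tcl1b3, Tcl1b4 and Tcl1b5. These 6 genes were examined on oligonucleotide arrays of embryonic gonad-mesonephros complexes, the gonad with its attached mesonephros. The family was chosen from measured values of these same arrays, because the signal of Tcl1b3 was about 5-fold lower in the mutant, so that difference is given as a description and supports nothing by itself. All probe sets annotated with a family symbol on both arrays were taken. There were 4 such probe sets, each naming 1 gene, for Tcl1, Tcl1b1, Tcl1b3 and Tcl1b4, among 18193 genes represented by a probe set with a single symbol. No probe set used here named Tcl1b2 or Tcl1b5.

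One array carried RNA of XX wild-type complexes, whose strain is not stated, and the other RNA of XX complexes homozygous for Gata4ki (Gata4ki/ki, strain C57Bl/6), both at E12.5. The Gata4ki allele encodes a GATA4 protein impaired in binding its FOG cofactors, and it is carried in the germ line, so every GATA4-expressing cell type is affected. Each array held total RNA of 6 pairs of complexes. With 1 array per group there is no replicate error and no test, and every ratio below compares these 2 RNA pools.

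TCL1 proteins are small beta-barrel proteins without enzymatic activity. They bind the kinase AKT and enhance its activation and nuclear transport. Tcl1 is known as an oncogene of lymphoid cells, is expressed in embryonic stem cells under the pluripotency network, and is present in oocytes and early embryos, where the clustered Tcl1b genes are expressed as well. Mtcp1, on the X chromosome, encodes a related protein that also binds AKT.

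The Tcl1b genes are tandem copies, and their promoter windows were compared first. These windows hold mostly sequence before the start and do not show whether array probes are shared between transcripts. The RefSeq table for GRCm38.p6 held 1 promoter window of 300 bases, from 250 bases before to 50 after the annotated start, for each of the 6 family genes. The windows of Tcl1b3, of Tcl1b4 and of Tcl1 are shown because of their signals. In that order these were bright and different between arrays, under the floor defined below, and hardly different. In the Tcl1b windows the capitals mark the longest run of letters found in all 5 Tcl1b windows. In the Tcl1 window they mark the letters TGATAA on either strand. The window of Tcl1b3 is chr12:105190795-105191094 on the plus strand, that of Tcl1b4 is chr12:105202145-105202444 on the plus strand, and that of Tcl1 is chr12:105222688-105222987 on the minus strand.
Tcl1b3: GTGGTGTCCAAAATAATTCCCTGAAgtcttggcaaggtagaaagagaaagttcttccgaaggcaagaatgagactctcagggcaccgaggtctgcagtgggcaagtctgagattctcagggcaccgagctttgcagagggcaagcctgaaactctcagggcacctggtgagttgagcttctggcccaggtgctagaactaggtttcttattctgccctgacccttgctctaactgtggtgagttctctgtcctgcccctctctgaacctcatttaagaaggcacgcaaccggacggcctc
Tcl1b4: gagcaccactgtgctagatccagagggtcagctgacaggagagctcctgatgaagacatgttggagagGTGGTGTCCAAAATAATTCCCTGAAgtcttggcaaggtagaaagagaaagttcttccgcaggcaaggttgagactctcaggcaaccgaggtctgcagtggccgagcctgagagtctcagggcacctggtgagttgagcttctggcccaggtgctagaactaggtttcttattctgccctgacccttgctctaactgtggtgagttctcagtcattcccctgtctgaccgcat
Tcl1: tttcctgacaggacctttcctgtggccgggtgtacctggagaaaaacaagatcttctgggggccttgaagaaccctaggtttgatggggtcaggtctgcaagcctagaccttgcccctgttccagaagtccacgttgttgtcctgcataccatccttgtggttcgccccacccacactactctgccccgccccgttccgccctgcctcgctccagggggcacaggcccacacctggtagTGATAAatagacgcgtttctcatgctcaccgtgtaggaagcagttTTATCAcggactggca

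The 5 Tcl1b windows resembled one another. Over the 10 pairs, local alignments covered 272 to 300 columns, gaps included, and 67.5% to 98.6% of the columns were identical. A gap counts as a column that is not identical, so the columns do not give the length of matched sequence. Tcl1b2 and Tcl1b4 were the most alike pair, with 98.6% identity. Tcl1b3 shared 80.9% with Tcl1b2 and with Tcl1b4, 68.0% with Tcl1b1 and 67.5% with Tcl1b5. Gaps and differing letters both lower these percentages and were not counted apart. A lower percentage therefore does not show that more letters differ, and the copies are not ranked by differing letters here. The shared run lies at the 5′ end of the Tcl1b3 window and further in for Tcl1b4. Its place depends on the annotated start and on stretches gained or lost between run and start. These were not told apart. This run of 25 letters occurred in the windows of no other gene among the 27025 genes of the table. The window of Tcl1 aligned with those of the Tcl1b genes over only 122 to 167 columns, with 56.4% to 59.0% identity. Tcl1 and Mtcp1 shared 67.1% over 73 columns, and Mtcp1 shared 55.8% to 65.9% with the Tcl1b windows over 81 to 209 columns. Unrelated windows were not aligned for comparison, so the percentages over these shorter stretches do not show relatedness.

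**Figure D1:**
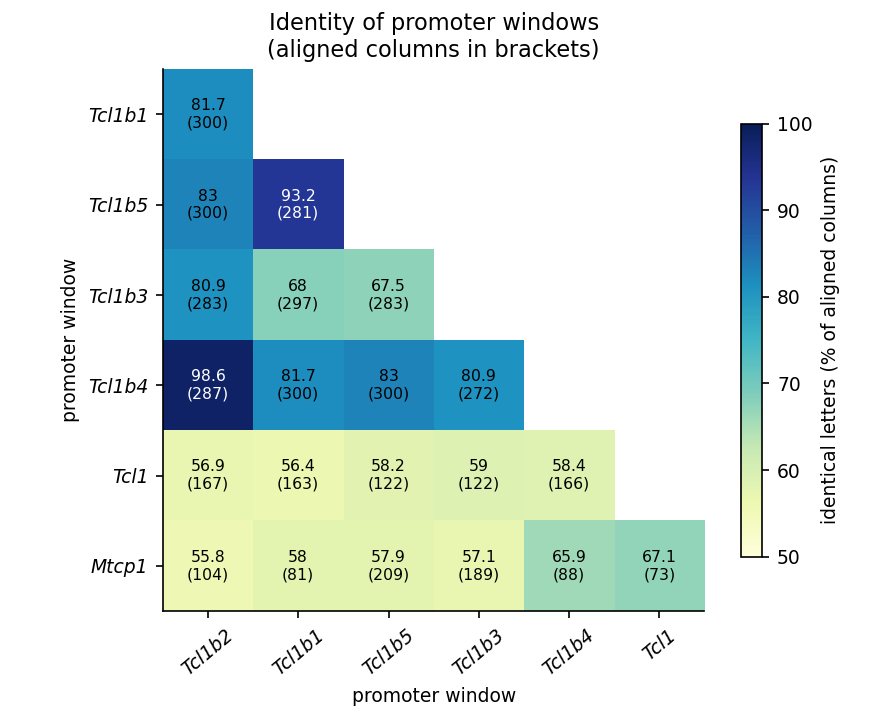
Pairwise identity of the promoter windows of the 5 Tcl1b genes, Tcl1 and Mtcp1, in percent of the columns of the best local alignment. The number of columns, gaps included, is in brackets, and a gap lowers the identity just as a differing letter does. Pairs of Tcl1b genes lie between 67.5% and 98.6% over at least 272 columns, whereas pairs with Tcl1 or Mtcp1 align over shorter stretches.

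Letters of the GATA type were searched on both strands of these windows, as TGATAA and AGATAA and, likewise, as TGATAG and AGATAG. Tcl1 had 2 matches, both TGATAA, at 11 bases before and 35 bases after the annotated start, the latter on the opposite strand. No match was found in the windows of Tcl1b1, Tcl1b2, Tcl1b3, Tcl1b4, Tcl1b5 or Mtcp1. Of all 32851 RefSeq windows, 29.8% held at least 1 of the 4, and 9.05% held TGATAA. A match describes letters only and is not a binding site, and the absence of a match applies to this window alone.

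Signals are MAS5 intensities on a linear scale. A floor was set at their median (50th percentile, a signal of 24.0) across both arrays, and a value below it was not treated as a level. Tcl1b3 had a signal of 746.2 on the wild-type array and 144.3 on the Gata4ki/ki array. Both values were well over the floor. The wild-type signal was 5.17-fold that of the mutant, a log2 ratio of -2.37 (mutant minus wild type).

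Tcl1, the founding member of the family, gave 116.4 in wild type and 113.2 in the mutant, a log2 ratio of -0.04. The 2 arrays were thus nearly equal for Tcl1. Tcl1b1 gave 23.9 and 22.1, just under the floor on both arrays. Tcl1b4 gave 5.64 and 2.33, below the floor in both groups, so no ratio is read for it. In all, 2 of the 4 represented members were above the floor, both of them on both arrays, and 1 of these was at least 2-fold lower in the mutant. Among all 12300 genes above the floor on at least 1 array, 0.537% were at least 2-fold lower. Since that contrast chose the family, the members' count is not read against this share.

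**Figure D2:**
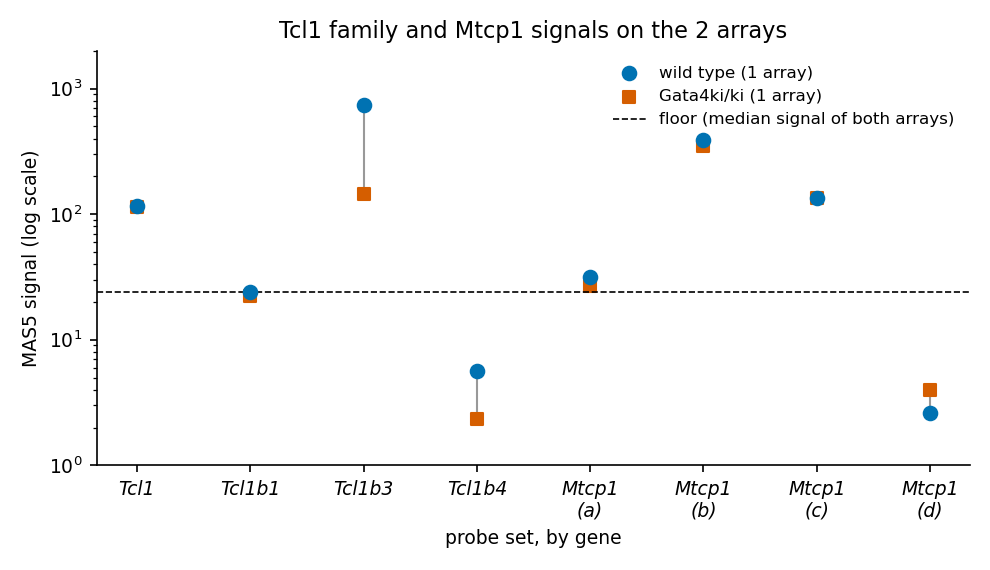
MAS5 signal (log scale) of each probe set named for a Tcl1 family gene and of the 4 Mtcp1 probe sets (a to d), on the wild-type array (circles) and the Gata4ki/ki array (squares), with the floor as a dashed line. Tcl1b3 stands at 746.2 and 144.3, Tcl1 at 116.4 and 113.2, and Tcl1b1 and Tcl1b4 do not reach the floor.

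The Tcl1b3 probe set carries the suffix _x_at, which marks sets with probes that also match other transcripts, and so does the Tcl1b1 set. The value named Tcl1b3 may therefore include RNA of other family copies, among them Tcl1b2 and Tcl1b5, which have no probe set of their own here. Which transcripts its probes match was not tested. Tcl1b3 has no second probe set, so the difference rests on 1 probe set on each array. The sets of Tcl1 and Tcl1b4 carry no suffix. Of 1614 _x_at probe sets above the floor on at least 1 array, 1.18% were at least 2-fold lower and 1.05% at least 2-fold higher in the mutant, compared with 0.625% and 0.798% of all 23683 such probe sets.

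Since Tcl1b3 was chosen for its low ratio, its place among other probe sets is given only to describe the arrays. There were 4200 others above the floor on both arrays with a mean signal within 1.5-fold of that of Tcl1b3. Their median log2 ratio was 0.0047 with a robust SD of 0.18, and 6 were at least 2-fold lower. Only 1 was as low as Tcl1b3, that of Fst (follistatin), at -3.55. Among the 206 of these that were _x_at sets, the lowest ratio was -1.65. For Tcl1, the 4841 probe sets of similar brightness had a robust SD of 0.28, and its ratio of -0.04 was within that spread. These spreads are between probe sets of the same 2 arrays and do not give the spread between embryos.

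**Figure D3:**
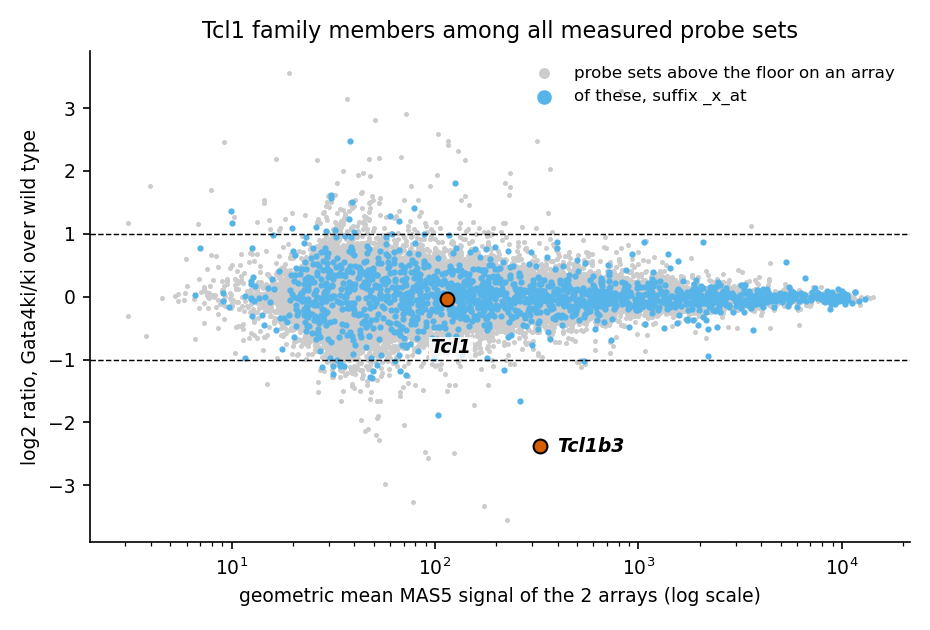
Log2 ratio (Gata4ki/ki over wild type, with signals under the floor set to it) against the geometric mean MAS5 signal of both arrays (log scale) for all probe sets above the floor on at least 1 array, with _x_at sets in blue and Tcl1 and Tcl1b3 marked. Dashed lines mark 2-fold. Tcl1b3 lies at -2.37, below the other probe sets of its brightness except 1, and Tcl1 at -0.04.

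Of 11462 genes with signals over the floor in both groups, Tcl1b3 had the third lowest log2 ratio, after Fst and Gng13. Among all 12300 genes above the floor on at least 1 array, with bounds at their value, its rank from the lowest was 4. Likeness was measured as the distance between log2 ratios, which over 2 arrays reflects a single difference. The 5 genes nearest to Tcl1b3 were Gng13, Akr1c14, Foxl2, Plxdc1 and Cfap161. Gng13, a G protein gamma subunit, gave 209.0 and 37.9, a ratio of -2.46. Akr1c14, an aldo-keto reductase of steroid metabolism, gave 116.7 and 24.2, a ratio of -2.27 with the mutant value just over the floor. Foxl2, a transcription factor of granulosa cells, gave 142.4 and 34.5, a ratio of -2.05. Plxdc1 and Cfap161 had ratios of -1.93 and -1.90. Each of the 5 has 1 probe set above the floor. With the floor at the 60th percentile all 5 became bounds, from -2.11 (Gng13) to -1.06 (Plxdc1 and Cfap161), whereas Tcl1b3 stayed at -2.37. For scale in the other direction, Dkk1, a secreted WNT antagonist, had a ratio of 2.48.

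Mtcp1, the relative outside the cluster, did not reach a 2-fold difference on any of its probe sets above the floor. It had 4 probe sets, of which 3 were above the floor. The brightest gave 386.2 and 347.0, a log2 ratio of -0.15. The accession behind it belongs to Cmc4, a mitochondrial protein gene that overlaps Mtcp1, in the RefSeq table, so that this set cannot be assigned to Mtcp1 alone. The other sets gave 134.0 and 133.8, 31.8 and 26.6 (a ratio of -0.26), and 2.59 and 3.99, the last not above the floor.

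The genes flanking the cluster were compared next. In the RefSeq gene order the cluster runs Tcl1b2, Tcl1b1, Tcl1b5, Tcl1b3, Tcl1b4 and Tcl1, with no other protein-coding gene between them. Of the 10 protein-coding genes on each side, 20 in all, 15 had a probe set and 9 were above the floor, each on both arrays. None of the 9 was 2-fold apart, and few genes at large were, 0.537% at least 2-fold lower and 0.846% higher, so this count says nothing particular about the neighbours. On the brightest set of each gene, log2 ratios ran from -0.35 to 0.12 with a median of 0.03, compared with 0.0062 over all measured genes. Glrx5, a mitochondrial glutaredoxin gene next to Tcl1b2, gave 1300.4 and 1324.6. D430019H16Rik, next to Tcl1, gave 513.0 and 513.5. Dicer1, which encodes the RNase that processes microRNA precursors, had a ratio of 0.12, Clmn of 0.11, and Gskip, Vrk1 and Papola of 0.09, 0.04 and 0.02. Ak7, an adenylate kinase, and Atg2b, an autophagy gene, had the lowest ratios on the brightest sets, -0.23 and -0.35. Dimmer sets of the same genes did not always agree and ran from -0.60 to 0.45, with -0.60 for Vrk1, -0.47 for Gskip, -0.44 for Papola and 0.45 for Atg2b. Within the cluster, Tcl1b5 on one side of Tcl1b3 has no probe set here, and Tcl1b4 on the other was not above the floor. Tcl1b1, beyond Tcl1b5, was not above it either. The extent of the difference among the Tcl1b genes could therefore not be read, while Tcl1, beyond Tcl1b4, had a ratio of -0.04.

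**Figure D4:**
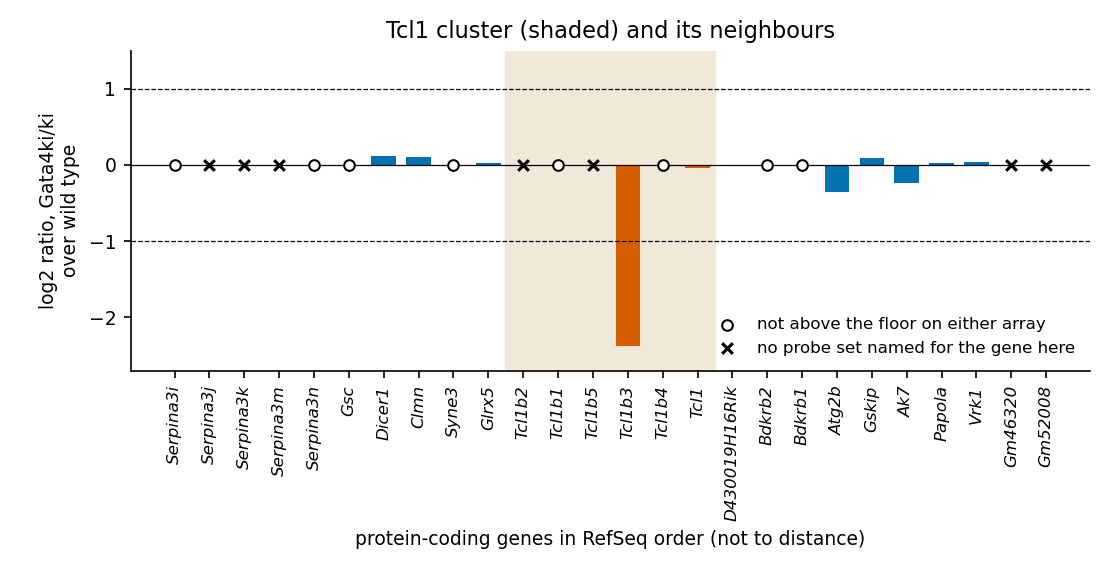
Log2 ratio (Gata4ki/ki over wild type) of the family genes (orange, shaded) and of the 10 protein-coding genes on each side, in RefSeq order and without scale of distance, with dashed lines at 2-fold. Open circles mark genes not above the floor on either array and crosses genes with no probe set here. Only Tcl1b3 passes 2-fold, and D430019H16Rik has a bar too short to see (513.0 and 513.5).

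Genes of the PI3K and AKT pathway, in which TCL1 proteins act, had log2 ratios from -0.53 to 1.13. Of 30 genes in the list, 28 were represented and 27 were above the floor. Among these 1 was at least 2-fold higher in the mutant, where 0.846% of all measured genes were, and none was 2-fold lower, where 0.537% were. Their median log2 ratio was 0.06, compared with 0.0062 over all measured genes. Akt1, the partner kinase best known for TCL1 binding, gave 906.3 and 839.5, a ratio of -0.11, but its second probe set gave 146.7 and 68.4, a ratio of -1.10. Akt2 gave 239.0 and 186.9, a ratio of -0.35, and its dimmer sets gave -0.73 or lower and 0.48. Pik3cb, a catalytic subunit of PI3K, was the gene past 2-fold, with 26.6 and 58.2 and a ratio of 1.13, its wild-type value lying just over the floor. That ratio was 0.26 or higher with the floor at the 60th percentile and 0.70 with a pseudocount in place of the floor, and so did not stay past 2-fold. Tbc1d4, an AKT substrate of glucose transport, and Foxo3, a transcription factor inhibited by AKT, had ratios of 0.72 and 0.58 on their brightest sets and of -0.32 and -0.16 on their second. Pik3r3, a regulatory subunit of PI3K, had -0.53. These are transcript levels and do not measure AKT activity.

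The tissues and cell types in which the family is known to be expressed were described through fixed lists. The labelled tissue was represented, since all 8 gonad and mesonephros markers on the array, among them Wt1, Nr5a1, Lhx9, Lhx1 and Cdh16, were above the floor on both arrays. Ratios on the brightest set of each ran from -0.23 to 0.34. For Gata4 and Lhx1 the brightest sets gave 0.25 and 0.21, and the second sets gave -0.51 and, for Lhx1, -0.55 or lower. Of 17 pluripotency genes above the floor none was 2-fold apart, as for nearly all genes on these arrays (0.537% lower and 0.846% higher), and their median was 0.02. Pou5f1, the core pluripotency factor OCT4, gave 180.5 and 196.8, Esrrb gave 43.4 and 45.0, and Tbx3 gave 295.1 and 338.7. Klf4 and Dppa5a had the largest absolute ratios of that list, -0.41 and 0.41.

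Of the 17 germ cell genes represented, 14 were above the floor, 13 of them on both arrays. None reached 2-fold, against the same low shares over all genes, and the median was -0.13. Dppa3, a maternal factor expressed in germ cells, gave 495.3 and 524.7. Rec8, a meiotic cohesin, Tfap2c, a germ cell transcription factor, and Dnd1, an RNA-binding protein of germ cells, had ratios of -0.94, 0.92 and -0.71, with 0.76 and 0.13 on the dimmer sets of Tfap2c. Most oocyte genes were not above the floor, namely 25 of the 29 represented, including those for the zona pellucida proteins Zp1, Zp2 and Zp3, the growth factor Bmp15 and the oocyte regulators Figla and Nobox. The 4 above it were Tle6, with 154.9 and 121.4, Ooep, with 66.9 and 77.0, Zar1, with 32.9 and 34.5, and Gdf9, with 27.9 and 35.0. None of these 4 was 2-fold apart, and their ratios ran from -0.35 to 0.33.

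Lymphoid genes, relevant because Tcl1 is a lymphoid gene, were mostly under the floor, 13 of the 18 represented. By comparison, 12300 of all 18193 represented genes were above the floor. The B and T cell genes Cd79a, Pax5, Cd3e, Rag1 and Rag2 were below it in both groups. Of the 5 above it, the B cell receptor gene Cd79b gave 35.5 and 39.9, the T cell gene Cd8a gave 35.1 and 38.5, and Igll1, of the pre-B cell receptor, gave 24.3 and 17.9, over the floor in wild type alone. Ptprc, which all leukocytes express, had a ratio of 0.92. Ebf1, which stromal cells also express, had a ratio of -0.74 with a mutant signal of 25.4, just over the floor. Its second probe set gave -0.10.

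**Figure D5:**
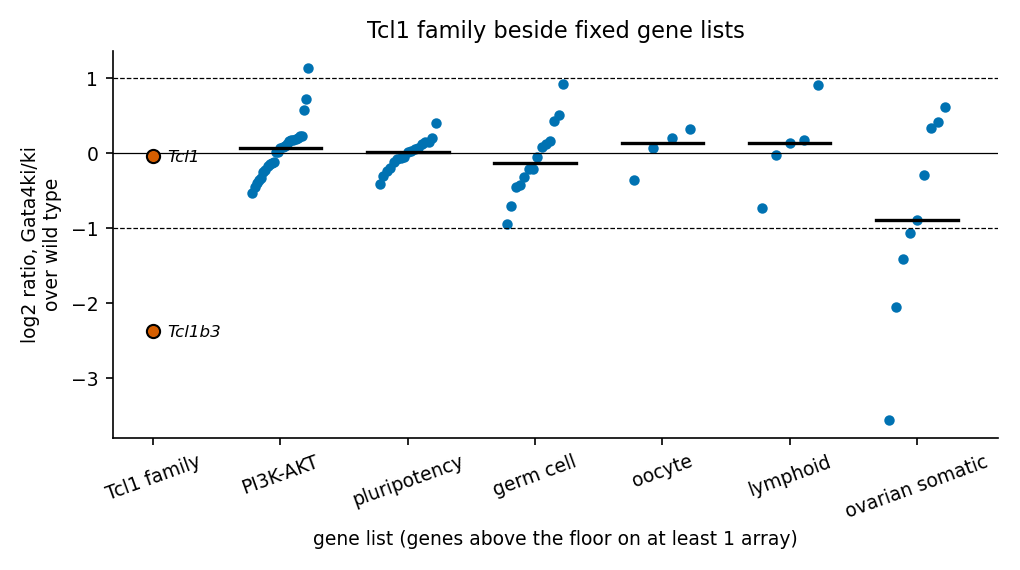
Log2 ratio (Gata4ki/ki over wild type) of the measured Tcl1 family genes (orange) and of the genes above the floor on at least 1 array in 6 fixed lists (blue), with the median of each list as a black bar and dashed lines at 2-fold. Tcl1b3, at -2.37, lies below every gene of the PI3K-AKT, pluripotency, germ cell, oocyte and lymphoid lists, and Fst, at -3.55, lies below it in the ovarian somatic list. Tcl1b3 was chosen for its low ratio, so its place here is a description only.

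Markers of other cell types gave the following values on the same arrays. Their lists were chosen with earlier results of these data known, so the counts only describe the arrays. The 9 ovarian somatic genes had a median of -0.89 and summed signals of 3864 (wild type) and 2414 (mutant), with 4 genes, Fst, Foxl2, Msx1 and Irx3, at least 2-fold lower (compared with 0.537% of all measured genes). Lgr5, Bmp2 and Rspo1 of the same list had ratios of 0.62, 0.42 and 0.34. Of 7 erythroid genes above the floor 4 were at least 2-fold higher, Hemgn, Klf1, Slc4a1 and Alas2 (compared with 0.846% of all measured genes), and the summed signal of the 8 represented was 294.1 and 666.7. None of the 12 macrophage genes was 2-fold apart. Their median was 0.50 and their summed signals were 1780 and 2612, with Csf1r alone at 626.0 and 1066, and Cx3cr1 and Cd14 had ratios of -0.39 and -0.36 or lower. Of 6 trophoblast genes above the floor 1 was at least 2-fold higher (compared with 0.846% of all measured genes). This was Prl7d1, at least 2.28-fold higher. The median of the 6 was 0.21 and their lowest ratio -0.10. The defining marker Tpbpa stayed under the floor (2.23 and 4.94). Msx1, Klf1, Slc4a1, Alas2 and Prl7d1 each fell short of 2-fold under at least 1 alternative floor, pseudocount or choice of probe sets. The part of these lists in the Tcl1b3 difference was not tested. In RNA of whole complexes, fewer cells of a type and less RNA per cell cannot be told apart.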

How the data were processed

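Per the submitters' processing notes the authors made the deposited values with MAS5; they are linear intensities, 1 per probe set, used here as deposited. Its version and the detection calls are not known here. Trimmed by 2% at each end, the mean intensity was 150.0 for each array.

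Of 45101 probe sets, 34958 had 1 symbol, 932 several and 9211 none in the platform annotation, and symbols were updated through RefSeq gene numbers. The 64 control probe sets were left out. Signals under the floor were set to it before taking log2. The brightest probe set stood for a gene, and 2-fold was the threshold for counts. A ratio with 1 array under the floor is a bound. Alignments used Biopython 1.88 (match 1, mismatch -1, gap opening -2). The counting was tested on simulated data.

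The members and gene lists were chosen with earlier results of these data known. Named were every member and Mtcp1, cluster neighbours, list genes past 2-fold or else with the largest ratios, the 5 genes nearest to Tcl1b3 in ratio, and Fst, Foxl2 and Dkk1. Other list genes, such as Akt1, Pou5f1 and Dppa3, were named after their values were seen. Array number and signal over background limit the precision.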

Additional observations from a re-analysis of the deposited data

How the results depend on the processing

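The ratio of Tcl1b3 ran from -2.37 to -2.19 over the 5 alternatives that gave a value, and that of Tcl1 from -0.04 to -0.03 over 6. Without suffixed probe sets Tcl1b3 had no value, which left 1 family member above the floor and 0 at least 2-fold lower. With the floor at the 40th percentile Tcl1b1 was above it, with a ratio of -0.11. The background counts depended on the floor. Genes at least 2-fold lower and higher numbered 136 and 210 at the 40th percentile, 33 and 41 at the 60th, and 41 and 64 with a pseudocount in place of the floor, and probe sets numbered 389 and 420, 57 and 70, and 75 and 114. At the 60th percentile the oocyte median was -0.074, over Tle6 and Ooep only. The lymphoid value there was 0.92, which is that of Ptprc alone. Without suffixed probe sets the lymphoid median was -0.28, over Ebf1 and Cd79b only. These values do not describe the lists as a whole. The ovarian somatic median was -0.50 without suffixed probe sets and the erythroid median 0.83 with the pseudocount. The PI3K-AKT and germ cell medians kept their sign in all 6 alternatives, from 0.01 to 0.06 and from -0.21 to -0.09. The PI3K-AKT values are too small to be read as a direction. The pluripotency median lay between -0.07 and 0.03 and so had no settled sign. Quantile normalization gave 65 and 105 genes at least 2-fold lower and higher. No probe set named several family members, so that alternative was not run. No paired analysis was possible because each group has 1 array.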
